A study of Mus musculus with 7 samples.

Results

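Solute carriers are membrane proteins that move sugars, amino acids, nucleosides, organic acids and ions across the plasma membrane and the membranes of organelles, and their genes carry Slc symbols with a number for the family. A resting B cell that meets an activating signal grows and raises its uptake and exchange of nutrients, and these carriers set what enters the cell, the mitochondrion and the lysosome. The Slc genes described here are all rows of the deposited gene table whose symbol is Slc followed directly by a digit, which gave 9 of 752 genes. They are Slc2a6, Slc17a5, Slc29a3, Slc25a1, Slc25a53, Slc25a35, Slc26a11, Slc9a7 and Slc6a20a.

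The cells were splenic B cells of mice on a C57BL/6J background, from 3 Batf KO animals and 4 wild-type (WT) animals. BATF is a basic leucine zipper factor of the AP-1 family that pairs with JUN proteins and binds DNA beside IRF4 or IRF8. All 7 cultures received 20 µg/mL LPS, which acts through TLR4, together with IL-4 at 20 ng/mL for 6 h, a combination that starts class switching, so no unstimulated cells stand beside them. The sources used here do not give the construct of the KO allele or the age and sex of the mice. The design text speaks of 2 replicates per sample without saying what they are. Each library was taken as 1 mouse, which is an assumption behind each n given here.

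The Batf KO libraries had effective sizes of 23675459 to 30844920 reads, and the WT libraries of 24891094 to 44728937 reads. Batf itself had 63.4, 70.3 and 65.8 CPM (reads scaled to a common library total) in the Batf KO libraries, against 315, 307, 333 and 322 CPM in the WT libraries, so the labels held for each library. The deposited table lists only genes selected for a difference between the genotypes. It holds 3.11% of all protein-coding genes, the share to set beside each marker count. Of the B cell markers searched, 3 of 13 were in the table (Ms4a1 and Blk higher, Ighm lower in Batf KO), and the others have no level here. Among markers of other spleen cells, the table held Cd8b1 (1 of 14 T and NK cell genes), Zbtb46 (1 of 15 myeloid genes), Pf4 (1 of 11 erythroid and platelet genes) and 0 of 10 stromal genes. Cd8b1 averaged 6.46 ± 1.12 CPM (SD, n = 3) in Batf KO and 2.05 ± 0.61 CPM (SD, n = 4) in WT, Zbtb46 averaged 81.4 ± 8.0 and 56.4 ± 7.49 CPM, and Pf4 0.93 ± 0.15 and 0.41 ± 0.15 CPM in the same order. Their part in the Slc values was not tested. In bulk RNA, fewer cells of a type and less RNA per cell cannot be told apart.

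Every gene in the table was selected by the authors' own comparison of the same 7 libraries, at a false discovery rate (FDR) of up to 0.0499. It therefore covers 3.81% of the 19734 genes over which they had adjusted. Each Slc gene in it differed between the genotypes because of that selection, and the fits given here describe the size and spread of the differences without adding evidence for them. The genes nearest the limit of the selection were Slc6a20a (FDR 0.0494) and Slc9a7 (FDR 0.0471) in the authors' deposited table, and genes outside it have no value here. The GENCODE annotation of the mouse has 371 protein-coding genes with an Slc symbol in 49 families, of which 9 (2.43%) were listed, beside 684 of 22028 (3.11%) for all protein-coding genes. Listed members came from 7 families, with 3 of the 47 mitochondrial carriers (Slc25) and 1 each from Slc2 (12 genes), Slc6 (21), Slc9 (14), Slc17 (9), Slc26 (11) and Slc29 (4).

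The Slc genes were divided in direction. Slc2a6, Slc25a1, Slc29a3 and Slc6a20a were higher in Batf KO, and Slc25a53, Slc17a5, Slc9a7, Slc26a11 and Slc25a35 were lower. Of the 9 genes, 8 had a mean of at least 1 CPM over all libraries and entered the fit. In edgeR's quasi-likelihood test each of the 8 passed an adjusted p of 0.05 (4 higher, 4 lower), beside 100% of the 667 fitted genes (50.8% higher, 49.2% lower), so the count says nothing about the Slc genes. With the same p-values adjusted over all 19734 genes, counting those outside the fit as not different, 2 of 8 passed, beside 42.9% of the 667. Of these 1 was higher and 1 lower, beside 20.1% and 22.8% of all fitted genes. They were Slc2a6 (adjusted p = 0.0296) and Slc25a53 (adjusted p = 0.0214). The Batf KO and WT libraries did not overlap for any of the 9 genes, beside 94.7% of all 752.

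**Figure D1:**
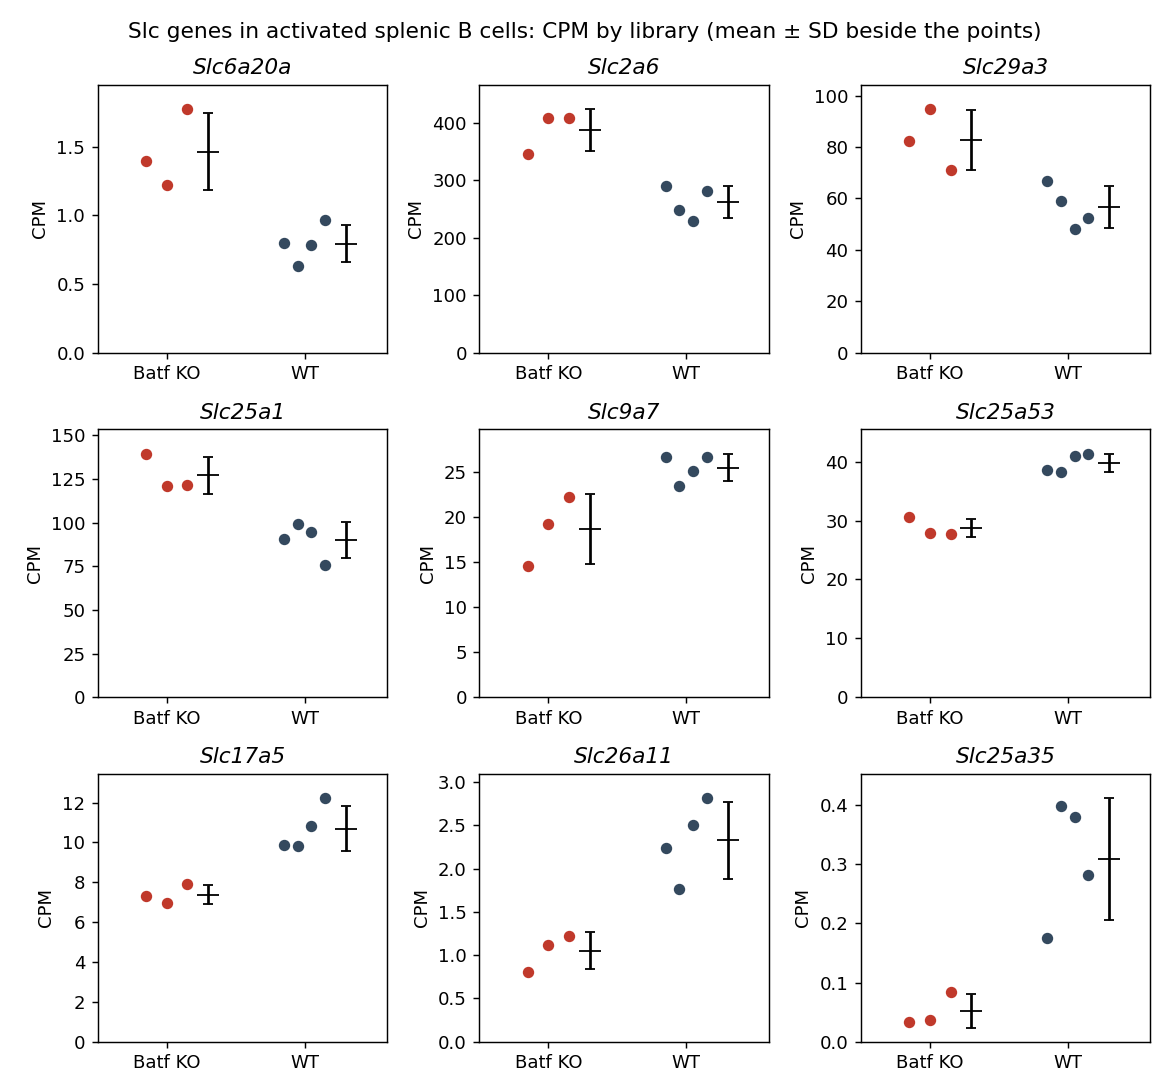
CPM of the 9 Slc genes in each library, Batf KO (red, n = 3) left of WT (dark blue, n = 4), with the mean and SD in black, each vertical axis starting at 0. The genes are ordered by log2 fold change, and in each panel the Batf KO points lie wholly above or wholly below the WT points.

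The differences were of modest size. The median absolute log2 fold change was 0.54 over the 8 fitted Slc genes (range 0.45 to 1.15) and 0.61 over all 667 fitted genes. The signed medians, 0.02 for the Slc genes and 0.30 for all fitted genes, cannot be compared. The selection left no fitted gene with an absolute value below 0.2486, so these medians fall in or near an empty band. Both sets were divided in direction, with 4 higher and 4 lower Slc genes beside 339 and 328 of all fitted genes. A 2-fold difference was reached by 1 of the 8, Slc26a11, beside 134 of 667.

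**Figure D2:**
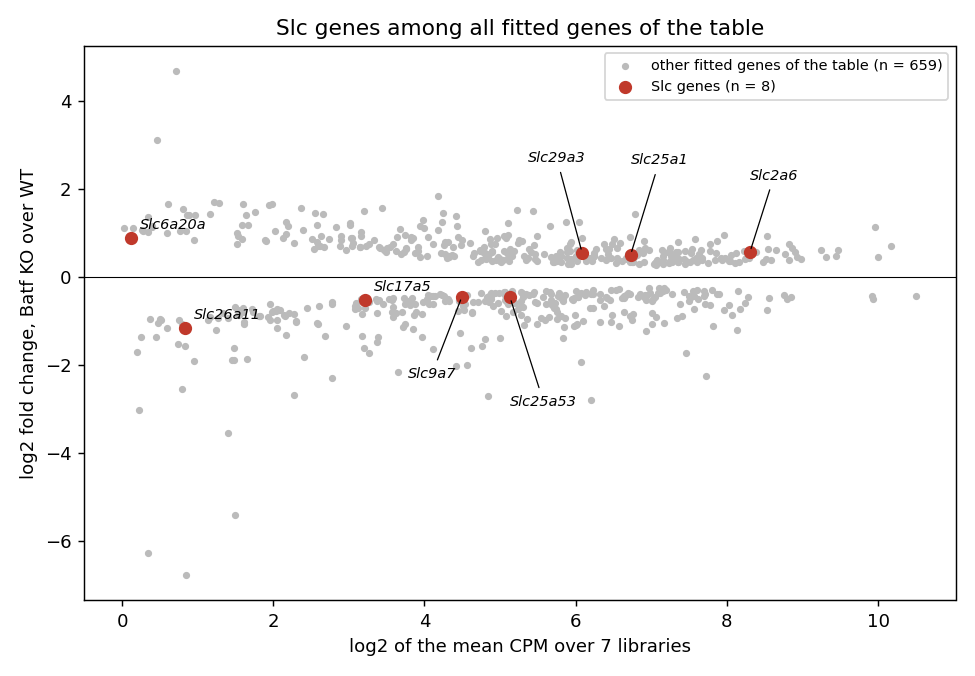
Log2 fold change of Batf KO over WT (vertical axis) against the log2 of the mean CPM (horizontal axis) for the 8 fitted Slc genes in red and the other fitted genes of the table in grey. The empty band around 0 is the part of the plot removed by the authors' selection, and Slc2a6, Slc25a1, Slc29a3, Slc25a53, Slc9a7 and Slc17a5 lie close to that band, while Slc26a11 and Slc6a20a lie at the low end of expression.

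The sugar group holds a hexose carrier that was higher and a sialic acid carrier that was lower. Slc2a6 encodes GLUT6, a member of the facilitative glucose transporter family that resides on lysosomal membranes. It lies on chromosome 2 (27021363 to 27027998, minus strand, GRCm38, the assembly also called mm10). The RefSeq promoter of Slc2a6 is shown because this was the most abundant Slc gene, with capitals marking a GC box (GGGCGG or its complement) and CCAAT boxes on either strand.
Slc2a6, 250 bases before the start, chr2:27027999-27028248, minus strand, GRCm38.p6: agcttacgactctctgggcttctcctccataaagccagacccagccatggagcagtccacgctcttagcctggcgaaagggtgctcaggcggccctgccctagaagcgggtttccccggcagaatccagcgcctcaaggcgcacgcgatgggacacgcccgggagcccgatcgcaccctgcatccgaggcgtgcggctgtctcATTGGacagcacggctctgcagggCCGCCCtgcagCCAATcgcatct

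Slc2a6 had 346, 408 and 409 CPM in the Batf KO libraries, against 291, 249, 230 and 281 CPM in the WT libraries. Each Batf KO library lay above each WT library, with Batf KO replicate 1 the nearest to WT. The log2 fold change was 0.56 (SE 0.10), a 1.48-fold increase, with an adjusted p of 0.00100 over the fitted genes. Slc2a6 carried 31354 reads in Batf KO and 36378 in WT. Its coefficients of variation of 9.37% in Batf KO and 10.7% in WT were above the 0.98% and 1.07% that counting alone would give.

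Slc17a5 encodes sialin, the lysosomal exporter of free sialic acid (chromosome 9, 78536488 to 78588041, minus strand). It had 7.29, 6.94 and 7.90 CPM in Batf KO, against 9.88, 9.80, 10.8 and 12.2 CPM in WT. The highest Batf KO value stayed below the lowest WT value. Slc17a5 was 1.45-fold lower, with a log2 fold change of -0.53 (SE 0.13) and an adjusted p of 0.00391, or 0.116 over 19734 genes. Its spread in Batf KO, 6.58%, was no larger than the 7.10% expected from counting, whereas in WT it was 10.5% against 5.31%.

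For nucleosides the table held Slc29a3, which encodes ENT3, an equilibrative nucleoside transporter of lysosomes (chromosome 10, 60712072 to 60752794, minus strand). Slc29a3 had 82.4, 94.7 and 71.3 CPM in Batf KO, against 66.8, 58.9, 48.2 and 52.6 CPM in WT. The groups came close, with Batf KO replicate 3 just above WT replicate 1. It was 1.46-fold higher in Batf KO, at a log2 fold change of 0.55 (SE 0.13). Its adjusted p was 0.00392 over the fitted genes and 0.116 over 19734 genes. Of the 3 lysosomal carriers described so far, Slc2a6 and Slc29a3 were therefore higher and Slc17a5 lower.

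Mitochondrial carriers of the Slc25 family exchange metabolites across the inner mitochondrial membrane. Slc25a1 encodes the citrate carrier, which passes citrate to the cytosol as a source of acetyl-CoA for lipid synthesis (chromosome 16, 17925223 to 17928219, minus strand). Its promoter is shown because it was the only Slc promoter searched that held an E-box (CACGTG), which is in capitals together with GC boxes and a CCAAT box.
Slc25a1, 250 bases before the start, chr16:17928220-17928469, minus strand, GRCm38.p6: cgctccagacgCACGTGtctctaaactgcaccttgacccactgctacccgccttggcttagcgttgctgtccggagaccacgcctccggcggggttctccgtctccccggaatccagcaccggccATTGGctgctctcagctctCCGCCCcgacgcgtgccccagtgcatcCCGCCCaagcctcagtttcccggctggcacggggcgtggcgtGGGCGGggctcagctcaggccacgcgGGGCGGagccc

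Slc25a1 had 139, 121 and 121 CPM in the Batf KO libraries, against 90.7, 99.1, 94.7 and 75.6 CPM in the WT libraries. Batf KO replicate 1 was the highest and WT replicate 4 the lowest, and the groups were well apart. The log2 fold change was 0.50 (SE 0.10), a 1.41-fold increase, with an adjusted p of 0.00197, or 0.0583 over 19734 genes. None of the genes searched as partners of mitochondrial metabolism, such as the citrate synthase gene Cs or the citrate-cleaving Acly, was in the table. That is 0 of 21, of which 20 are in the annotation, beside 3.11% of all protein-coding genes. At that share a list of this size may hold none, so the count says nothing about these genes.

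The other mitochondrial carriers were lower in Batf KO. Slc25a53 is an orphan carrier gene of the X chromosome (136981116 to 137038302, minus strand), whose substrate is not established. Its upstream promoter is shown as that of the lower gene with the least spread, with its GC box in capitals.
Slc25a53, 250 bases before the upstream start, chrX:137038303-137038552, minus strand, GRCm38.p6: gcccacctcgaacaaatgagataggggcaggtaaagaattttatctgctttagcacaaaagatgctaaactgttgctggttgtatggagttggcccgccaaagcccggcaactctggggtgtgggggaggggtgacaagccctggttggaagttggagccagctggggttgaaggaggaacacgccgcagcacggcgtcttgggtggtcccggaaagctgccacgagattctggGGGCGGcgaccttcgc

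Slc25a53 had 30.5, 27.9 and 27.8 CPM in Batf KO, against 38.6, 38.3, 41.0 and 41.3 CPM in WT. Within each genotype its values were the tightest of the Slc genes, at a coefficient of variation of 5.46% in Batf KO and 3.97% in WT. The gene was 1.38-fold lower, with a log2 fold change of -0.47 (SE 0.08) and an adjusted p of 0.000725.

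Slc25a35, another orphan carrier (chromosome 11, 68968131 to 68974365, plus strand), stood at the limit of detection. It had 1, 1 and 2 reads in the Batf KO libraries, against 7, 12, 17 and 7 reads in the WT libraries, or 0.05 ± 0.03 CPM (SD, n = 3) and 0.31 ± 0.10 CPM (SD, n = 4). The ratio of reads per library size was 6.27 for WT over Batf KO, with an exact 95% counting interval of 2.28 to 24.1. This gene fell below the CPM filter. In the fit without the filter its log2 fold change was -2.55 (SE 0.56), with an adjusted p of 0.00280, or 0.0735 over 19734 genes. Its annotated exons share 1151 bases with those of Rangrf on the opposite strand. The sources used here do not say whether the counting used strand, so reads of the 2 genes may not be separable.

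Both genes grouped here as carriers of inorganic ions were lower in Batf KO. Slc26a11 encodes a sodium-independent sulfate transporter (chromosome 11, 119355557 to 119381079, plus strand). It had 25, 30 and 29 reads in Batf KO, against 89, 53, 112 and 70 reads in WT, which corresponds to 0.81, 1.11 and 1.22 CPM and to 2.23, 1.76, 2.50 and 2.81 CPM. Slc26a11 showed the largest difference among the fitted Slc genes, a log2 fold change of -1.15 (SE 0.24), or 2.23-fold lower, and it ranked 89th of 667 fitted genes by absolute log2 fold change. The adjusted p was 0.00211 over the fitted genes and 0.0624 over 19734 genes. By reads per library size the WT over Batf KO ratio was 2.25, with an exact 95% counting interval of 1.77 to 2.90.

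Slc9a7 encodes NHE7, a sodium or potassium to proton exchanger of the trans-Golgi network (X chromosome, 20105754 to 20291807, minus strand). It had 14.5, 19.2 and 22.2 CPM in the Batf KO libraries, against 26.7, 23.5, 25.1 and 26.7 CPM in the WT libraries. The Batf KO values were widely spread, at a coefficient of variation of 20.8% in Batf KO and 6.01% in WT, and the highest lay just under the WT range. The log2 fold change was -0.45 (SE 0.14), with an adjusted p of 0.0124, or 0.368 over 19734 genes. Batf KO replicate 1 was the lowest library, and without it the log2 fold change was -0.30.

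Slc6a20a, grouped here under amino acids, encodes SIT1, which takes up proline and other imino acids with sodium (chromosome 9, 123634770 to 123678885, minus strand). It had 43, 33 and 42 reads in Batf KO, against 32, 19, 35 and 24 reads in WT, or 1.39, 1.22 and 1.77 CPM and 0.80, 0.63, 0.78 and 0.96 CPM. The log2 fold change was 0.88 (SE 0.23), a 1.84-fold increase, with an adjusted p of 0.00529, or 0.156 over 19734 genes. Slc6a20a passed the CPM filter through its Batf KO values, since the WT mean was 0.80 CPM. Reads of its paralog Slc6a20b, and of the antisense gene Gm17120, which shares 563 exon bases with it, may not be separable from its own, since the handling of strand and of reads with several matches is not known.

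Levels of different genes were compared as CPM per kb of annotated exon. This length counts the exons of all annotated transcripts, whether or not these cells use them, so the order depends on it. Slc2a6 was the most abundant in both genotypes, at 121 ± 11.3 CPM per kb in Batf KO and 81.8 ± 8.79 in WT (SD, n = 3 and 4), followed by Slc25a1 at 58.8 ± 4.89 and 41.6 ± 4.72 and Slc29a3 at 14.2 ± 2.01 and 9.71 ± 1.39. Slc9a7 came next at 4.88 ± 1.01 CPM per kb in Batf KO and 6.67 ± 0.40 in WT, and then Slc25a53 at 3.61 ± 0.20 and 5.0 ± 0.20. The libraries of these 2 neighbours overlapped in Batf KO and not in WT. By CPM alone their order was the reverse, with Slc25a53 at 28.7 in Batf KO and 39.8 in WT, and Slc9a7 at 18.6 and 25.5. Their exon lengths were 7.96 kb for Slc25a53 and 3.82 kb for Slc9a7. Slc17a5 stood at 2.03 ± 0.13 CPM per kb in Batf KO and 2.94 ± 0.31 in WT, above the 3 genes with few reads. Slc6a20a (0.36 ± 0.07 CPM per kb) and Slc26a11 (0.29 ± 0.06 CPM per kb) overlapped in Batf KO, whereas in WT Slc6a20a (0.19 ± 0.03) lay below Slc26a11 (0.64 ± 0.12). Slc25a35 was last in both genotypes. The 3 most abundant genes were all higher in Batf KO, and the next 3 were all lower in it.

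**Figure D3:**
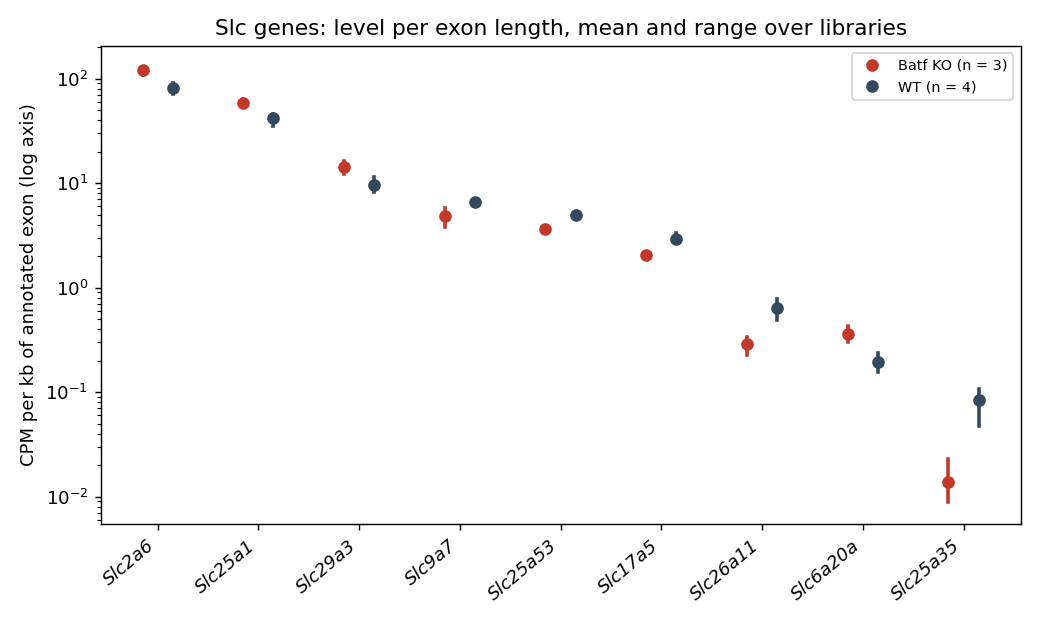
Level of each Slc gene as CPM per kb of annotated exon, on a log axis, for Batf KO (red, left of each pair, n = 3) and WT (dark blue, n = 4), with dots at the mean and lines from the lowest to the highest library. Genes are ordered by their WT level, from Slc2a6 at 81.8 to Slc25a35 at 0.08 CPM per kb. Slc6a20a lies below Slc26a11 in WT, while the ranges of these genes overlap in Batf KO.

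The WT libraries were alike in pairs over all table genes. A chi-square test of counts gave 18.4 per degree of freedom for replicates 1 and 2 and 20.8 for replicates 3 and 4, against 33.4 to 49.8 for the other WT pairs and 16.8 to 24.1 within Batf KO. This value grows with read depth, which reached 30844920 reads in Batf KO and 44728937 in WT. The values of the 2 genotypes are therefore not on one scale. In the library titles, WT replicates 3 and 4 are numbered after all other libraries, and what the numbers mean is not stated. The Slc genes showed this division of the WT libraries in part. Slc25a53, Slc17a5 and Slc26a11 were higher in WT replicates 3 and 4 than in replicates 1 and 2, Slc29a3 was lower in them, and the others showed no such order. In each of these genes both pairs lay on the same side of the Batf KO libraries.

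Both X-linked Slc genes were lower in Batf KO. The Y chromosome gene Usp9y had 72 reads in Batf KO replicate 1 and 0 in the other 6 libraries, so that library differs from the rest in a sex-linked gene. Without it the log2 fold change was -0.52 for Slc25a53, against -0.47 with all libraries, and -0.30 for Slc9a7, against -0.45. Other listed genes stood close to both loci. Zcchc18, whose span overlaps that of Slc25a53 on the opposite strand with no shared exon base, had 13.3 ± 0.45 CPM in Batf KO and 18.8 ± 1.93 CPM in WT (SD, n = 3 and 4). Fam199x, 11.3 kb from Slc25a53, had 15.7 ± 0.17 CPM in Batf KO and 20.6 ± 0.84 CPM in WT. Rp2, 72.7 kb from Slc9a7, had 42.5 ± 2.76 CPM in Batf KO and 53.5 ± 3.13 CPM in WT. All 3 X-linked neighbours were thus lower, with log2 fold changes of -0.50, -0.39 and -0.33, beside 49.2% of all fitted genes. None of the 3 passed the adjustment over 19734 genes, beside 42.9% of all fitted genes. The direction of the other X-linked genes in the table was not counted, so the direction cannot be called particular to these loci. Neighbours were taken within 100 kb of each Slc gene.

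RefSeq promoters were found for 7 of the 9 Slc genes, in 8 windows of 250 bases before the start, Slc26a11 and Slc25a35 having none in the table. The AP-1 element TGANTCA was in 0 of the 8 windows and in 6.75% of all 32851 promoter windows, both strands searched. The composite letters of AP-1 with an IRF site, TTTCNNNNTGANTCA and GAAATGANTCA, both of which contain the AP-1 element, were in 0 of 8 and in 0.0974% and 0.1% of all windows. The cyclic AMP response element TGACGTCA (1.55% of all windows), the NFIL3-type element TTANNTAA (5.43%) and the STAT6-type element TTCNNNNGAA (5.85%) were also in 0 of the 8. The E-box CACGTG was in 1 of 8 windows, that of Slc25a1, and in 6.02% of all. GC boxes were in 8 of 8 windows and in 32.7% of all, and CCAAT boxes in 5 of 8 and 33.8% of all. These 2 elements were chosen for the search after the sequences had been seen. The G and C content of the member windows was 58.0% to 70.0%, beside a median of 52.4% over all windows, and GC boxes occur more readily in such sequence. Absence of these letters applies only to the bases searched.

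The genes with the most similar course over the 7 libraries were sought for the 3 fitted Slc genes with the largest differences, as the root mean square difference in log2(CPM + 0.5) after centring each gene on its WT mean. For Slc26a11 these were Cldnd1 (0.10) and Aff3 (0.13), for Slc6a20a Prr33 (0.12) and Fam49a (0.12), and for Slc2a6 Bcl9l (0.07) and Fcrl1 (0.08). The median difference from all other fitted genes was 0.80 for Slc26a11, 0.62 for Slc6a20a and 0.59 for Slc2a6. Fcrl1, an Fc receptor-like gene of B cells, averaged 234 ± 13.7 CPM in Batf KO and 150 ± 7.18 CPM in WT (SD, n = 3 and 4). Similarity of this kind follows largely from a like difference between the genotypes after 0.5 CPM was added. That addition shrinks the fold change of genes with few reads. The fitted log2 fold changes were -0.88 for Cldnd1 and -0.89 for Aff3, against -1.15 for Slc26a11. They were 0.67 for Prr33 and 0.57 for Fam49a, against 0.88 for Slc6a20a. For both Bcl9l and Fcrl1 the value was 0.64, against 0.56 for Slc2a6.

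Some solute carriers have other symbols. Of 62 such genes searched, 59 of which are in the annotation, the table held 2, Flvcr2 and Mfsd2a, beside 3.11% of all protein-coding genes. Flvcr2, a transporter gene described for heme and choline and a neighbour of Batf on its chromosome, had 5.61, 6.68 and 6.55 CPM in Batf KO, against 2.28, 2.09, 1.92 and 1.73 CPM in WT. It was 3.11-fold higher, which is more than any of the fitted Slc genes. Mfsd2a, a carrier of lysophosphatidylcholine, had 81.8, 90.3 and 84.4 CPM in Batf KO, against 116, 111, 122 and 105 CPM in WT, and was 1.33-fold lower. Both passed the adjustment over 19734 genes, with edgeR adjusted p-values of 0.00147 and 0.0362.

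Channels, pumps and ABC transporters had 8 of 90 genes in the table, beside 3.11% of all protein-coding genes. The list was chosen with earlier results of these data known, and the 3.11% is taken over annotated genes, expressed or not. No excess of such genes can therefore be read from this count. Of these 8, 3 were higher and 5 lower, beside 50.8% and 49.2% of all fitted genes. Their median log2 fold change of -0.49 follows from that division, as the selection removed values near 0. It is not compared with the median of all fitted genes. The calcium entry channel gene Orai1 had 53.7, 49.7 and 39.2 CPM in Batf KO, against 21.8, 23.4, 26.9 and 27.1 CPM in WT, a log2 fold change of 0.94. The potassium channel gene Kcna3 had 3.11, 5.79 and 3.76 CPM in Batf KO, against 11.6, 11.7, 13.3 and 14.8 CPM in WT, a log2 fold change of -1.61. The calcium-activated potassium channel gene Kcnn4 (0.87) and the flippase gene Atp10a (0.88) were higher. The calcium pump gene Atp2b1 (-0.39), Atp10d (-0.60), Clcn5 (-0.76) and Abca5 (-0.64) were lower. Adjusted over 19734 genes, Orai1, Kcna3, Atp2b1 and Atp10d, 4 of the 8, passed in edgeR, beside 42.9% of all fitted genes.

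Genes that use the carriers' substrates are given by list, beside the 3.11% of all protein-coding genes that the table holds. Of 43 genes of amino acid use, the ATF4 response and mTORC1, Bcat1, a branched-chain aminotransferase, was listed and lower (log2 fold change -0.63). Of 33 glycolysis, lactate and pyruvate genes, the phosphofructokinase gene Pfkp was lower (-0.42) and the oxygen sensor gene Egln3 higher (1.38), beside the higher Slc2a6. Of 26 nucleotide and nucleotide sugar genes, Gfpt1, which commits sugar to the hexosamine pathway that leads to sialic acid, was lower (-0.40), as Slc17a5 was. Of 17 genes of intracellular pH and carbonate, Car13, a carbonic anhydrase, was lower (-0.89) and the kinase gene Stk39, a regulator of chloride cotransporters, higher (0.75). Of 21 zinc, copper and iron genes the table held the metallothionein gene Mt1, with 1 read in Batf KO and 22 in WT, and no Slc carrier of these metals was listed. Of 21 genes of lipid, choline, folate and vitamin use, 0 were listed. Adjusted over 19734 genes, Pfkp, Egln3 and Gfpt1 passed in edgeR, and Bcat1, Car13, Stk39 and Mt1 did not.

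**Figure D4:**
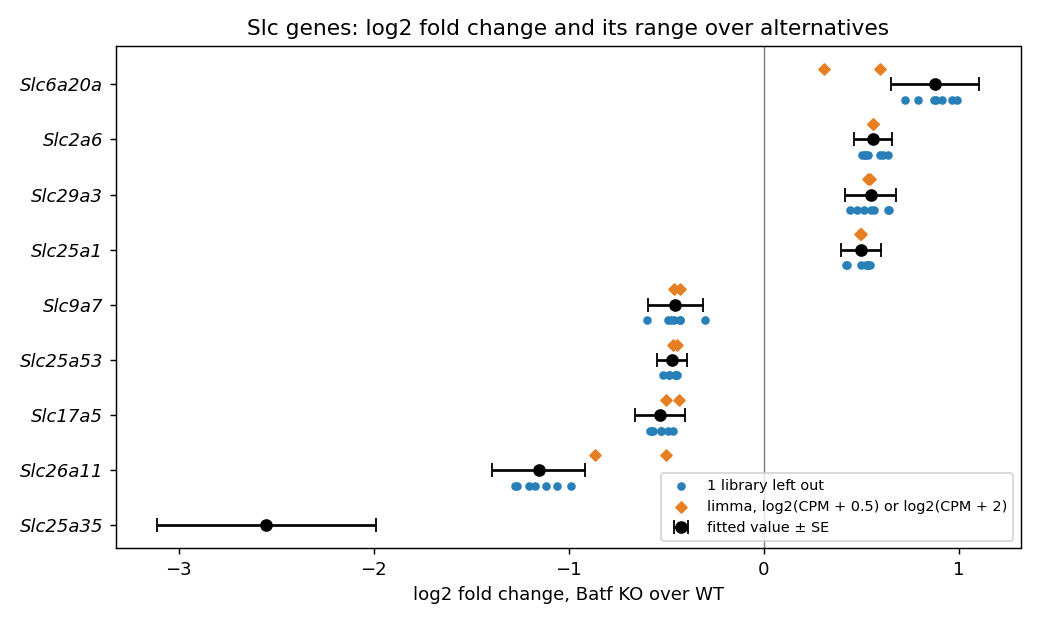
Log2 fold change of Batf KO over WT for each Slc gene, as the fitted value with its SE (black), with 1 library left out in turn (blue) and by limma with pseudocounts of 0.5 or 2 CPM (orange). Slc25a35 is the fit without the CPM filter and has no alternatives plotted. No value crosses 0, Slc9a7 reaches -0.30, and the limma values of Slc6a20a and Slc26a11 lie nearer to 0, as a pseudocount shrinks the fold change of genes with few reads.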

How the data were processed

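RNA was sequenced as paired-end libraries, per the labels' protocols. Per the submitters' processing notes, TopHat2 2.0.6, HTSeq 0.5.3p7, edgeR 3.03 and the build mm10 were used, without stated roles. The sources used here do not state the annotation, the strand setting or how reads with several matches were handled. The deposited table gives a raw read count per gene and library, and the CPM that the authors computed from it, per the file headers. It also holds the authors' log2 fold change, likelihood ratio (a score), p-value and FDR.

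Effective library sizes were recovered as count divided by CPM. Counts of the whole table were tested with edgeR 4.0.16 (quasi-likelihood, two-sided) in R 4.3.3, for genes with a mean of at least 1 CPM (667 genes; 85 were below), with Benjamini-Hochberg adjustment over the fitted genes. The SE is the log2 fold change divided by the square root of F. The edgeR step was run on simulated counts in which most genes did not differ, as a check of the code only. That run cannot check the test for this table, where every gene had been selected. A second adjustment ran over 19734 genes and counted those outside the fit, including the 85 genes below the filter, as not different. In the fit without the filter, only genes outside the table were so counted. The p-values set the difference between the genotypes against the spread between libraries of a genotype, which may be in part technical. That spread was estimated from genes selected on the same comparison, so it may be too small. Exact counting intervals (scipy 1.17.1) cover counting error only. Alternatives were DESeq2 1.42.0, limma 3.58.1, TMM factors, other filters and leaving out each library. Positions and exon lengths are from GENCODE M21 (GRCm38, 746 of 752 identifiers matched). All Slc genes were named, with each listed member of the 14 gene lists. The Slc genes and the lists were chosen with earlier results of these data known. Some genes near the Slc genes are not reported here.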

Additional observations from a re-analysis of the deposited data

Results flagged for a closer look

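A library was singled out in a group of 4 where its gap to the nearest other library took up an unusually large part of the range (Dixon's 95% limit). Over 42 sets of WT values, 1 was found, and chance gives about 2.1. It was not an Slc gene. Rp2, near Slc9a7, was 58.1 CPM in WT replicate 1 and 51.5 to 52.5 CPM in the others.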

How the results depend on the processing

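The numbers of Slc genes called higher and lower, 4 and 4, became 1 and 1 when adjusted over all 19734 genes, and also 1 and 1 when the CPM filter was dropped in addition, an alternative chosen after seeing the data. The adjustment over 19734 genes is the stricter one by its making, whereas dropping the filter alone added Slc25a35 to the lower genes. No other alternative moved either count by more than 1.5 times, and with each of the 7 libraries left out in turn they ranged from 4 to 4 for higher and 4 to 4 for lower genes. Of 119 values of single genes under alternatives none reversed, and 13 lost their call, all under the adjustment over 19734 genes. Without Batf KO replicate 1 the log2 fold change of Slc9a7 was -0.30, against -0.60 without Batf KO replicate 3. With limma and a pseudocount of 2 CPM the log2 fold change was -0.50 for Slc26a11 and 0.31 for Slc6a20a. TMM factors moved the median of all fitted genes by -0.04. The TMM and DESeq2 factors were computed from these selected genes alone, so they cannot check the scaling of the libraries. A minimum mean of 5 CPM leaves out Slc26a11 and Slc6a20a, and Slc25a35 has values only without the filter. As the genes had been selected on these libraries, this stability is not independent evidence. No paired analysis was run, because the labels do not match Batf KO libraries to WT libraries. Depth limits Slc25a35, Slc26a11 and Slc6a20a.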
